A study of Mus musculus with 11 samples.

Results

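The genes described here are 9 immediate early response genes in pooled mouse hearts at embryonic day 9.5: Fos, Fosb, Jun, Junb, Egr1, Ier2, Ier3, Dusp1 and Atf3. They were taken by name, as all probe sets whose single annotated gene symbol is one of the 9, with Ier3 set against the others. This gave 10 of 45037 probe sets tested, and 9 of 18193 genes; Jun has 2 probe sets, each other gene 1. All control arrays (n = 3) came from hearts of genotype Gata4 flox/+ and Nkx2-5 +/+. Double heterozygous hearts were Gata4 flox/+ and Nkx2-5 cre/+ (n = 3), and conditional knockout (CKO) hearts were Gata4 flox/flox and Nkx2-5 cre/+ (n = 5). GATA4 is a transcription factor needed for early heart growth, and the Nkx2-5 locus drives Cre recombinase in cardiac progenitors and myocardium. Every group thus carried at least 1 floxed Gata4 allele, and in the Cre groups the presence of Cre and the loss of an Nkx2-5 copy cannot be told apart. The hearts were pooled, and nothing in the labels says that replicates were separate pools, so each p-value rests on a spread between arrays that may be technical.

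Immediate early genes are transcribed within minutes of a stimulus such as a growth factor, stretch or stress, from factors already present in the cell. Serum response factor with its ETS-family partners, CREB and NF-kB are the usual activators, and the ERK kinase pathway drives many of them. Fos, Fosb, Jun and Junb encode subunits of the AP-1 transcription factor, Egr1 a zinc-finger factor and Atf3 a stress-induced leucine-zipper factor. Dusp1 encodes a phosphatase that turns MAP kinases off. Ier3 encodes a short-lived regulator of cell survival and ERK signalling, and Ier2 a nuclear protein induced by growth factors.

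The promoters of Ier3, Fos and Dusp1 are shown because these are the 3 genes whose CKO-labelled arrays all lay above all control arrays. Each run is the 250 bases before the annotated start in RefSeq (GRCm38.p6), 5′ to 3′ on the gene's strand, with matches on either strand to the motifs searched in capitals, except the ETS core GGAA, which is left in lower case. Ier3 lies at chr17:35821463-35821712 (plus strand), Fos at chr12:85473640-85473889 (plus strand) and Dusp1 at chr17:26508473-26508722 (minus strand).
Ier3: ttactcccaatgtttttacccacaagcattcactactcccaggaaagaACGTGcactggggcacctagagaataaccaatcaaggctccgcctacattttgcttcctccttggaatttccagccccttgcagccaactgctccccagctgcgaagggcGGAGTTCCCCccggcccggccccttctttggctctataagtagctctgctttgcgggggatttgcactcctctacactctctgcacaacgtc
Fos: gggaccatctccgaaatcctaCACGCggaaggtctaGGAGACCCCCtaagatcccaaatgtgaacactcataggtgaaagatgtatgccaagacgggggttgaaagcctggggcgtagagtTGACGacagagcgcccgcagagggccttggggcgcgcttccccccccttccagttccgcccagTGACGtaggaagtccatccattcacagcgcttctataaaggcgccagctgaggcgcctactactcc
Dusp1: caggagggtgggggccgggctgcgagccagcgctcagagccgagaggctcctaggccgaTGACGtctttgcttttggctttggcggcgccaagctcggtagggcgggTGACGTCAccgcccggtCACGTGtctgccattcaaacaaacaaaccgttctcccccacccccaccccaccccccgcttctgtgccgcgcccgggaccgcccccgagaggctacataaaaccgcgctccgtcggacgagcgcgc
The Ier3 run holds a hypoxia core, ACGTG, from base -202 to base -198 and an NF-kB site on the opposite strand from -92 to -83. Fos holds the cyclic AMP core TGACG, the start of a CREB site, at -129 to -125 and at -66 to -62, a hypoxia core on the opposite strand at -229 to -225 and an NF-kB site at -214 to -205. In Dusp1 the cyclic AMP core lies at -191 to -187, and 2 overlapping copies on opposite strands start at -143 and -140; 2 overlapping hypoxia cores lie between -126 and -121.

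A window of 300 bases, running from 250 before to 50 after the start, was found for 7 of the 9 genes; Egr1 and Ier2 are named only. The motifs were searched on both strands. The cyclic AMP core TGACG was present in 5 of the 7 windows and in 20.8% of all 32851 RefSeq windows. The NF-kB site was in 3 (Ier3, Fos and Fosb) against 4.51% of all windows. The hypoxia core, ACGTG or GCGTG, was in 6 against 43.8%, and the GATA site in 2 (Jun and Atf3) against 29.8%. The ETS core GGAA was in all 7 and in 96.0% of all windows. The serum response factor motif (the CArG box) and the AP-1 site, TGACTCA or TGAGTCA, were in 0 of 7, against 1.63% and 5.20%. An absent match covers only these 300 bases and the exact letters searched, so sites further away or variant sites were not looked for. Of the motifs searched, the windows of Ier3, Fos and Dusp1 have only the hypoxia core and the ETS core in common. A match describes letters in a short window and is not shown to be a bound site.

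**Figure D1:**
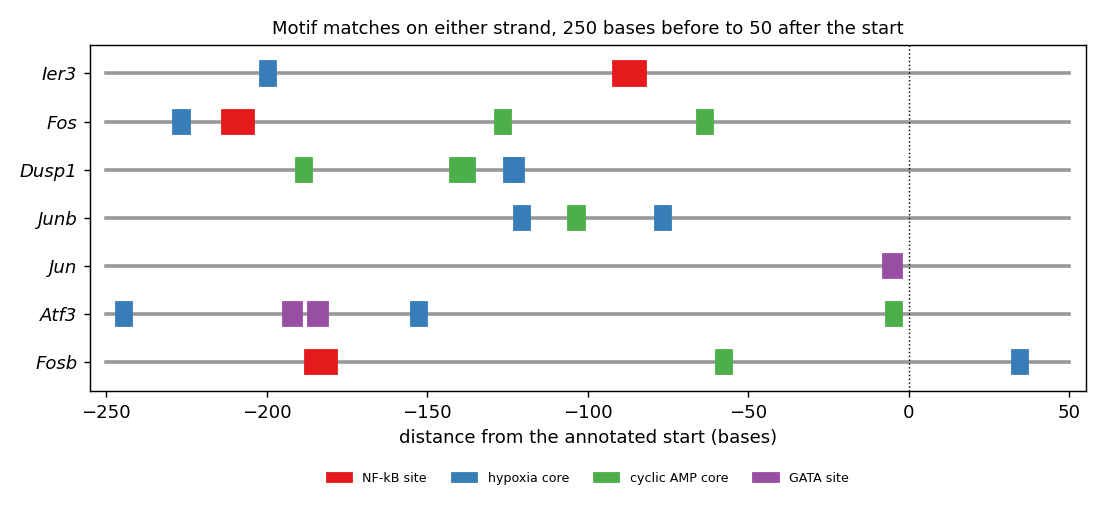
Motif matches in the promoter windows of 7 immediate early genes. The horizontal axis is the distance from the annotated start in bases and each coloured block is a match on either strand; Ier3, Fos and Fosb carry an NF-kB site, and 5 windows, but not that of Ier3 or Jun, carry the cyclic AMP core.

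Expression was measured on 1-colour arrays, and values are given as log2(intensity + 16) after quantile normalisation, so that 1 unit is about a doubling for bright probe sets and less for dim ones. Levels of different genes are not compared, because each probe set has its own response. Gata4 itself read 8.77, 9.09 and 9.09 in the control arrays, 9.40, 9.21 and 9.33 in the double heterozygous arrays and 9.53, 9.28, 9.45, 9.37 and 9.53 in the CKO-labelled arrays. The signal of the targeted gene was thus not lower in the CKO-labelled arrays but was called higher than in controls (log2 difference 0.45, limma adjusted p = 0.0321). Every double heterozygous and every CKO-labelled array lay above every control array. The sources used here do not say where the probes lie relative to the deleted part, so this signal does not check the labels, and the arrays are called CKO-labelled throughout. Cardiomyocyte markers were bright on all arrays: the sum of 8 of them ran from 44330 to 45650 in controls, 44740 to 45950 in double heterozygous and 44800 to 48470 in CKO-labelled arrays, with Myh7 called higher than in controls (0.27, adjusted p = 0.0154). Mean intensity as deposited was 117 in CKO replicate 3 and 166 to 176 elsewhere, and the actin 3′ minus 5′ log2 signal was 1.001 in CKO replicate 2 and 0.29 to 0.45 elsewhere. The difference without both is given for Ier3, Fos, Junb, Jun and Dusp1. It is not given for the other members, although Egr1 and Atf3 were lowest on CKO replicate 3 and Ier2 was highest on CKO replicate 2.

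Ier3 was the member with the clearest difference. Its log2 values were 8.08, 8.37 and 8.26 in the control arrays, 7.72, 8.04 and 8.32 in the double heterozygous arrays, and 9.66, 9.88, 9.74, 11.19 and 10.32 in the CKO-labelled arrays. The 5 CKO-labelled arrays all lay more than 1 log2 unit above the other 6, which overlapped with each other. In deposited intensities the same probe set ran from 270 to 329 in controls, from 202 to 300 in double heterozygous hearts and from 593 to 2416 in CKO-labelled hearts. Group means were 8.24 ± 0.15 (SD, n = 3), 8.03 ± 0.30 (n = 3) and 10.16 ± 0.63 (n = 5). The CKO-labelled mean was higher than the control mean by 1.92 (SE 0.26, 95% interval 1.36 to 2.48, limma adjusted p = 0.00164), a 3.80-fold difference with an interval of 2.57 to 5.60. Without CKO replicates 2 and 3 it was 2.15 (adjusted p = 0.000549). Against the double heterozygous mean it was higher by 2.13 (SE 0.26, 95% interval 1.57 to 2.69, limma adjusted p = 0.00265), or 4.39-fold. By p-value Ier3 ranked 68 of 45037 probe sets in the first comparison and 12 in the second, which share the CKO-labelled arrays. RNA of whole pooled hearts was measured, so more cells of a type that expresses a gene and more RNA per cell cannot be told apart.

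**Figure D2:**
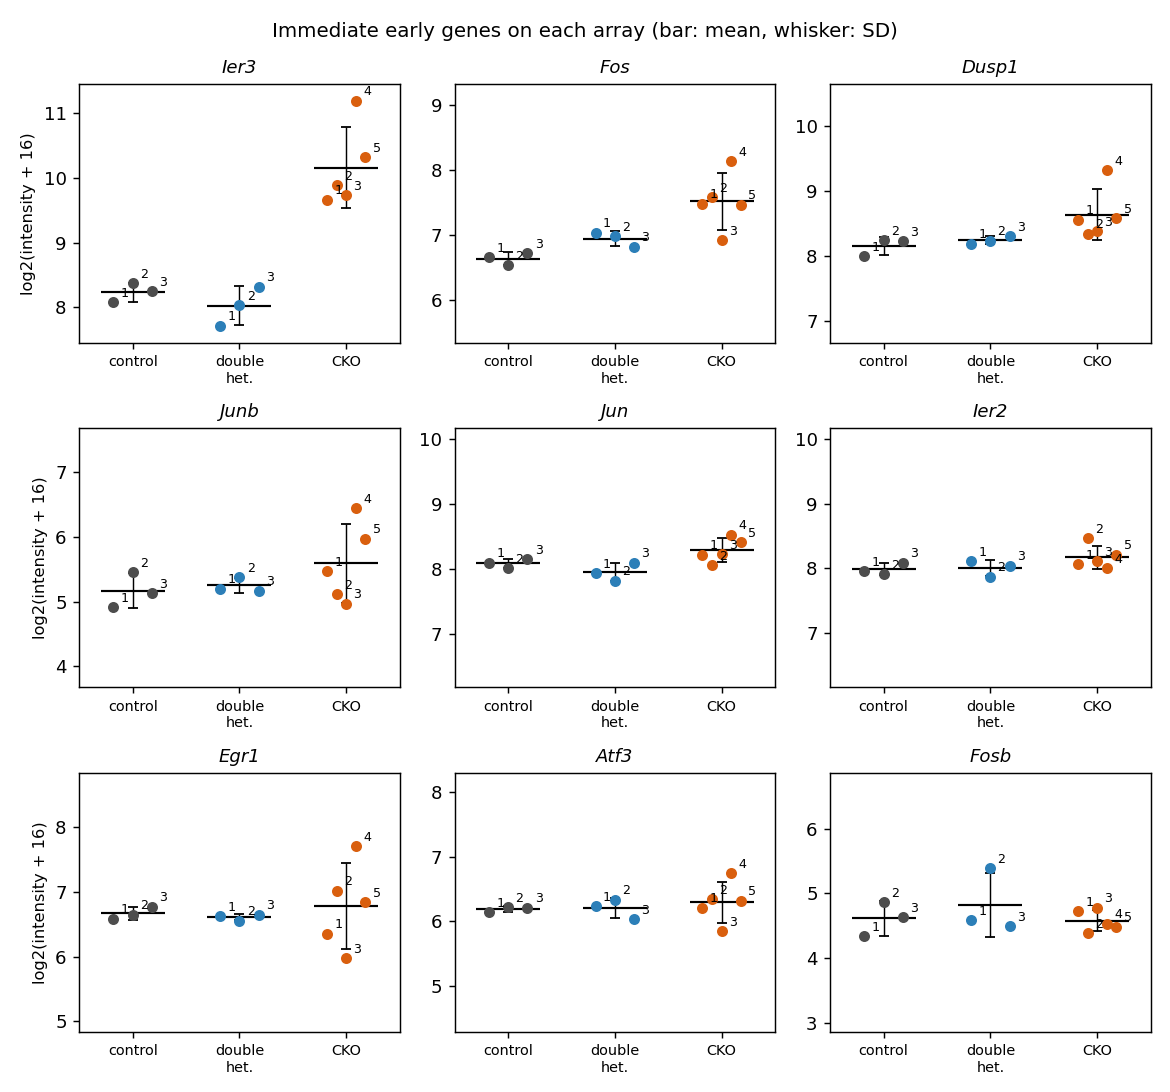
Log2(intensity + 16) of the 9 genes on each of 11 arrays, numbered by replicate, with the group mean (bar) and SD (whisker); all panels span the same number of log2 units. The CKO-labelled Ier3 values sit between 9.66 and 11.19, above all other arrays, whereas for Egr1, Atf3, Jun, Ier2, Junb and Fosb the groups overlap.

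Fos, the AP-1 subunit used most widely as a sign of recent stimulation, was the other member that rose. Its log2 values were 6.66, 6.53 and 6.72 in the control arrays, 7.03, 6.98 and 6.82 in the double heterozygous arrays and 7.48, 7.58, 6.92, 8.14 and 7.47 in the CKO-labelled arrays. The groups ran in order, with every CKO-labelled and every double heterozygous array above every control array, but CKO replicate 3 fell within the double heterozygous range. The CKO-labelled mean was 7.52 ± 0.43 (SD, n = 5) against 6.64 ± 0.10 (n = 3) in controls, a log2 difference of 0.88 (SE 0.19, 95% interval 0.47 to 1.29, limma adjusted p = 0.0356) or 1.84-fold. Against the double heterozygous mean of 6.94 ± 0.11 (n = 3) the difference was 0.57 (95% interval 0.16 to 0.98, adjusted p = 0.25) and was not called. The call against controls was close to the threshold. It was lost when any control array was left out (log2 differences 0.83 to 0.93, adjusted p 0.12 to 0.19), when any double heterozygous array was left out (0.88 each, adjusted p 0.053 to 0.062), and without CKO replicate 5 (0.90, adjusted p = 0.076). As deposited, without rescaling, Fos intensity in CKO replicate 3 was 67.6, below the control range of 80.8 to 97.3, and the call was lost (log2 difference 0.76, adjusted p = 0.38). Without CKO replicate 3 the difference from controls was 1.03 (adjusted p = 0.00277) and that from double heterozygous arrays was 0.72 and was called (adjusted p = 0.0427). Without CKO replicates 2 and 3 the differences were 1.06 (adjusted p = 0.00218) and 0.75 (adjusted p = 0.0315).

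The other AP-1 subunits did not pass the test. Junb, a partner of Fos, had log2 values of 4.91, 5.45 and 5.13 in controls, 5.20, 5.38 and 5.17 in double heterozygous arrays and 5.47, 5.12, 4.97, 6.44 and 5.97 in CKO-labelled arrays. CKO replicates 4 and 5 were the highest, and the other 3 lay within or near the control range. The CKO-labelled mean was 0.43 above the control mean, with an interval from -0.15 to 1.01 (limma adjusted p = 0.56). The Junb difference was 0.22 without CKO replicate 4 (adjusted p = 0.74) and 0.81 without replicates 2 and 3 (adjusted p = 0.061). Jun had 2 probe sets, and the groups overlapped on each. On the brighter one the log2 values were 8.09, 8.01 and 8.15 in controls, 7.93, 7.82 and 8.10 in double heterozygous arrays and 8.22, 8.05, 8.23, 8.53 and 8.41 in CKO-labelled arrays. The differences from controls were 0.20 (interval -0.04 to 0.44) and 0.21 (interval -0.02 to 0.44) on the 2 probe sets, with adjusted p of 0.49 and 0.43. The differences from double heterozygous arrays were 0.34 (adjusted p = 0.25) and 0.12 (adjusted p = 0.69). Without CKO replicates 2 and 3 the brighter probe set differed by 0.30 from controls (adjusted p = 0.16) and by 0.44 from double heterozygous arrays (adjusted p = 0.057). Fosb was dim, with deposited intensities from 3.11 to 23.1 while the array medians lay between 17.2 and 29.8. Its log2 values ran from 4.34 to 4.87 in controls, 4.49 to 5.39 in double heterozygous arrays and 4.39 to 4.78 in CKO-labelled arrays, and the CKO-labelled mean was 0.03 below that of controls (interval -0.45 to 0.39). No array of the CKO-labelled group stood out.

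Egr1, the zinc-finger factor usually induced together with Fos, was not called in any comparison. Its log2 values were 6.58, 6.64 and 6.77 in controls, 6.62, 6.55 and 6.64 in double heterozygous arrays and 6.35, 7.01, 5.97, 7.70 and 6.84 in CKO-labelled arrays. The control and double heterozygous arrays ran from 6.55 to 6.77, while the CKO-labelled arrays held both the lowest and the highest of the 11 values. The difference from controls was 0.11 (SE 0.27, interval -0.46 to 0.69, limma adjusted p = 0.91), an interval that leaves room for a change of either sign. Without CKO replicate 4 it was -0.12 (adjusted p = 0.87), and over the 22 alternative settings it ran from -0.22 to 0.31. Atf3 had the same shape on a smaller scale. Its values were 6.14, 6.22 and 6.21 in controls, 6.24, 6.34 and 6.03 in double heterozygous arrays and 6.21, 6.35, 5.85, 6.75 and 6.32 in CKO-labelled arrays. The difference from controls was 0.10 (interval -0.26 to 0.46, adjusted p = 0.86), and it was -0.01 without CKO replicate 4. Over the 22 alternative settings the Atf3 difference ran from -0.06 to 0.24. Ier2 read 7.96, 7.91 and 8.09 in controls, 8.11, 7.87 and 8.04 in double heterozygous arrays and 8.06, 8.46, 8.11, 7.999 and 8.22 in CKO-labelled arrays. It was highest in CKO replicate 2, with a difference from controls of 0.18 (interval -0.06 to 0.43, adjusted p = 0.54).

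Dusp1, the phosphatase of the set, lay higher on every CKO-labelled array than on any other array but was not called. Its log2 values were 7.996, 8.24 and 8.23 in controls, 8.19, 8.23 and 8.31 in double heterozygous arrays and 8.56, 8.34, 8.38, 9.32 and 8.58 in CKO-labelled arrays. CKO replicates 2 and 3 exceeded the highest of the other arrays by less than 0.1, and replicate 4 stood well above the rest. The CKO-labelled mean was 8.64 ± 0.40 (SD, n = 5), 0.48 above that of controls (SE 0.17, interval 0.11 to 0.85, limma adjusted p = 0.22) and 0.39 above that of double heterozygous arrays (interval 0.02 to 0.76, adjusted p = 0.39). Without CKO replicate 4 the difference from controls was 0.31 (adjusted p = 0.18), and without replicates 2 and 3 it was 0.66 and was called (adjusted p = 0.0393). As deposited, Dusp1 intensity in CKO replicate 3 was 217, below all control arrays, so the separation of the groups held only after the arrays were scaled by quantiles.

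**Figure D3:**
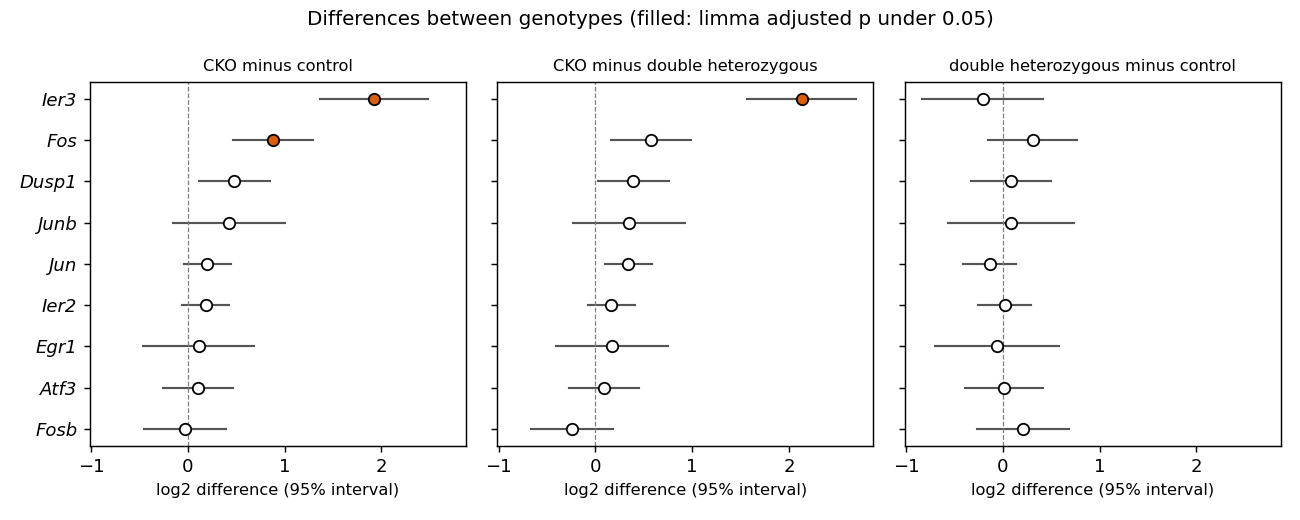
Log2 difference of each gene in the 3 comparisons, with its 95% interval; filled points have a limma adjusted p under 0.05. Ier3 at 1.92 and 2.13 stands to the right of the other genes in the comparisons of the CKO-labelled arrays, and in the comparison of double heterozygous with control arrays every interval crosses 0.

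Counted over the set, 2 of 9 genes (Ier3 and Fos) passed the test with higher CKO-labelled than control means, where 0.837% of all probe sets were called higher. Against double heterozygous arrays 1 of 9 (Ier3) was called higher, with 0.286% of all probe sets. The F-test over the 3 groups called Ier3 (limma adjusted p = 0.000645) and not Fos (adjusted p = 0.0704), and it called 0.961% of all probe sets. All CKO-labelled arrays lay above all control arrays for 3 of 9 genes (Ier3, Fos and Dusp1), against 3.93% of all probe sets, and above all double heterozygous arrays for 2 (Ier3 and Dusp1), against 3.07%. On deposited values, and after centring each array on its median, only Ier3 of the 9 stayed separated in each comparison. Without CKO replicates 2 and 3, 5 of 9 were separated in each: Ier3, Fos, Dusp1, Jun and Junb. The share over all probe sets was not computed at these settings, and separation is easier to reach with fewer arrays. A higher CKO-labelled mean than control mean was found for 8 of 9 genes, while 46.1% of all genes had one. The 8 genes other than Ier3 had a median difference of 0.19, from -0.03 to 0.88, beside a median of -0.02 over all genes, so Ier3 lay 1.73 above that median and 1.04 above Fos, the next gene. Against double heterozygous arrays the median of the 8 was 0.26 and Ier3 lay 1.88 above it. The members were chosen with such values known, so these counts describe the set and carry no test.

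No member was called between the double heterozygous arrays, which carry Cre at 1 Nkx2-5 allele, and the controls. No probe set was called in this comparison (0 of 45037, or 0% of probe sets, by limma), while 1435 had an unadjusted p under the usual level, none of them a member. Ier3 was 0.21 lower in double heterozygous arrays (interval -0.84 to 0.42). Fos was 0.31 higher (interval -0.15 to 0.77, limma adjusted p = 0.9999), and its 3 double heterozygous arrays all lay above the 3 control arrays, as was the case for 4.69% of all probe sets. The differences of the other 7 genes lay between -0.14 (Jun) and 0.21 (Fosb).

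Ier3 and the other genes were then compared on each array, as differences from the control mean. On CKO replicate 1 Ier3 was 1.43 above its control mean and the median of the 8 other genes was 0.12 above theirs. The pairs of values were 1.65 and 0.17 on replicate 2, 1.50 and 0.13 on replicate 3, 2.96 and 0.80 on replicate 4, and 2.08 and 0.27 on replicate 5. Ier3 was above the highest of the other 8 genes on each of these 5 arrays, and the nearest of them came to 0.84, 0.95, 0.28, 1.50 and 0.83. On the double heterozygous arrays Ier3 was at -0.51, -0.20 and 0.09 while the median of the other genes was at 0.03, 0.11 and 0.01. Ier3 was thus far above the rest on all 5 CKO-labelled arrays, while the median of the other genes was 0.80 on replicate 4 and 0.12 to 0.27 on the remaining 4.

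**Figure D4:**
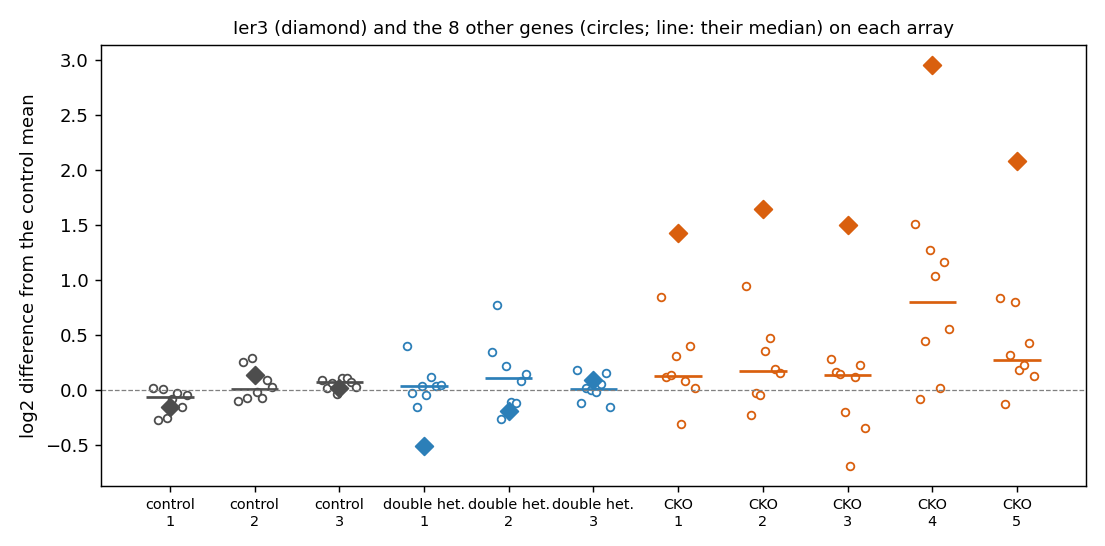
Log2 difference from the control mean on each of the 11 arrays for Ier3 (diamonds) and the 8 other genes (open circles, with a line at their median). Ier3 lies 1.43 to 2.96 above 0 on the 5 CKO-labelled arrays, and the median of the other genes is highest, at 0.80, on CKO replicate 4.

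The CKO-labelled arrays also varied more among themselves. This group has 5 arrays against 3, and it holds replicate 2, with the high actin signal, and replicate 3, with the low mean intensity. The part of these arrays in the spread was not tested. The SD within the CKO-labelled group exceeded that within controls for 8 of 9 members (all but Fosb) and for 76.5% of all genes. Its median over the 9 members was 0.40, against 0.10 in controls and 0.12 in double heterozygous arrays, and over all genes the medians were 0.21, 0.12 and 0.14. Egr1 had the largest SD of the 9 within the CKO-labelled group, 0.66 against 0.10 in controls, and Atf3 the largest ratio of the SDs, 0.32 against 0.04. Replicate 4 was the highest of the CKO-labelled arrays for 7 of 9 members (77.8%), that is for all but Fosb and Ier2, against 16.1% of all genes. Replicate 3 was the lowest for 4 of 9, against 28.1% of all genes. Replicate 4 did not stand apart in mean intensity (175) or in the actin signal (0.44). Its sum was the highest of all arrays for cardiomyocyte markers (48470, beside 48360 on CKO replicate 2 and 44330 to 45650 in controls). It was also the highest for endothelial markers (2268, beside 2226 on CKO replicate 5 and 1650 to 1732 in controls). The same held for macrophage markers (344, controls 222 to 267) and neural crest markers (339, controls 230 to 243). Of the 4 macrophage markers, Csf1r (0.47) was among 2 with a higher CKO-labelled than control mean. The 2 lower ones were Ptprc (-0.76) and Cd68 (-0.17), and none of the 4 was called. The neural crest sum was mostly Ets1, with deposited intensities up to 314, beside 41.8 for Sox10 and 12.2 for Foxd3. Without replicate 4, Ier3 was 1.67 above controls (limma adjusted p = 0.000253) and Fos 0.73 (adjusted p = 0.0346), so both calls held.

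Marker genes of other cell types that a dissected heart can hold moved with the groups in part. The sum of 5 endothelial markers was 1650 to 1732 in controls, 1607 to 1678 in double heterozygous and 1884 to 2268 in CKO-labelled arrays, with Kdr and Cdh5 called higher (0.69 and 0.63) and Tek lower (-0.65). The sum of 4 proepicardial markers was 742 to 854, 370 to 574 and 261 to 712 in the same order, and Tcf21 was lower than in controls (-1.31). The sum of 712 was that of CKO replicate 4, and the remaining CKO-labelled arrays ran from 261 to 486. Wt1, of the same list, was at 0.23 against controls and 0.64 against double heterozygous arrays, with no call. Erythroid sums overlapped (12360 to 15010, 12480 to 15670 and 11820 to 16240, over 5 of 6 genes), as did those of 4 macrophage markers (222 to 267, 217 to 297 and 208 to 344) and 4 foregut endoderm markers (44.0 to 64.6, 31.4 to 122 and 39.1 to 150). The 3 neural crest markers summed to 230 to 243, 183 to 222 and 185 to 339. Their double heterozygous sums all lay below the control sums, and the CKO-labelled range overlapped both. Ptprc, Foxa2, Epcam, Sox2 and Foxd3 went down to a deposited intensity of 0.04 or less on at least 1 array. The part of these markers in the values of Ier3 and Fos was not tested.

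A wider list held 30 other immediate early genes. This list was chosen with earlier results of these data known. Of its genes, 24 had a CKO-labelled mean above the control mean, as did 46.1% of all genes. The median difference was 0.20, beside -0.02 over all genes. Of the 30, 2 were called higher, where 0.837% of all probe sets were, and none lower. Btg2, an antiproliferative gene, was higher by 0.79 (SE 0.11, limma adjusted p = 0.00164). Ccn2, which encodes the secreted protein CTGF, was higher by 0.99 (SE 0.18, adjusted p = 0.0118). Its control values were 8.45, 8.83 and 8.97, and its CKO-labelled values were 9.53, 9.53, 9.55, 10.43 and 9.63. Ccn1 (0.71, adjusted p = 0.0714) and the kinase gene Plk2 (0.47, adjusted p = 0.0702) had separated groups and were not called. Against double heterozygous arrays 26 of 30 had a higher mean, as did 46.9% of all genes. In that comparison 0.286% of all probe sets were called higher, and 3 of the 30 were: Btg2 (0.72), Plk2 (0.75) and Ccn2 (0.91). That count was 0 on deposited values, with median centring, and without double heterozygous replicate 1 or replicate 2. The count against controls was 2 at the main setting, 0 on deposited values, and 1 without control replicate 1 or control replicate 2.

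Genes of the pathways that act on these genes or are fed back by them were read as lists. Only RNA of these genes was measured, not the activity of a pathway. Among regulators of the ERK and serum response factor route, 15 of 18 were measured, 8 had a higher mean and 0 were called, with a median of 0.00 against controls; the largest differences by p were those of Elk4 (-0.32) and Mrtfb (0.23). Among ERK feedback inhibitors and ETV targets 14 of 15 were measured, 11 had a higher mean and 0 were called, with a median of 0.22. The phosphatase genes Dusp10 (0.71, adjusted p = 0.059) and Dusp5 (0.62, adjusted p = 0.10) and the inhibitor Spry1 (0.50, adjusted p = 0.065) came nearest. In the comparison with double heterozygous arrays 8 of the 14 had a higher mean, with a median of 0.11, and these 3 genes were at 0.24, 0.26 and 0.21. Between double heterozygous and control arrays 12 of 14 had a higher mean, with a median of 0.15 and 0 calls. Against controls 0.837% of all probe sets were called higher. Of all genes, 46.1% had a higher mean in CKO-labelled than in control arrays, and 46.9% than in double heterozygous arrays. The share was 49.4% for double heterozygous against control arrays. NF-kB factors and feedback targets had 5 of 9 higher means and 0 calls, with a median of 0.01 and Tnfaip3 at 0.68 (adjusted p = 0.098). Of 11 p53 targets measured, 3 had a higher mean and Btg2, which is also in the list above, was called. Heat shock genes, which respond to heat and protein damage, had 3 of 10 higher means and 1 call, lower, for Hspd1 (-0.26). Of 12 ATF4 and unfolded protein stress genes, 8 had a higher mean and 0 were called against controls; Chac1 was at 0.80 (adjusted p = 0.16) and was called against double heterozygous arrays (1.33, adjusted p = 0.0394).

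Genes known to be induced by low oxygen were the list with the most calls. All 17 had a CKO-labelled mean above the control mean, as did 46.1% of all genes. Of the 17, 13 were called higher, where 0.837% of all probe sets were. The median difference was 0.75, beside -0.02 over all genes. This list too was chosen with earlier results of these data known, so its counts carry no test. Ddit4, an inhibitor of mTOR signalling, was higher by 1.76 (limma adjusted p = 0.00164), the oxygen sensor Egln3 by 1.54 (adjusted p = 0.00138) and the mitophagy gene Bnip3 by 0.79 (adjusted p = 0.000566). The other called genes were Bhlhe40 (1.22), Car9 (1.01), Vegfa (0.91), P4ha1 (0.77), Egln1 (0.75), Hk2 (0.75), Adm (0.64), Pdk1 (0.56), Higd1a (0.50) and Slc2a1 (0.36), among them genes of glucose uptake, glycolysis and vessel growth. Against double heterozygous arrays 8 of 17 were called higher, where 0.286% of all probe sets were. That count was only 1, 3 and 5 without double heterozygous replicate 1, 2 and 3, and 13 without CKO replicate 3. The count against controls was 2 on deposited values, 6 with median centring, 7 without a trend in the moderation, 8 without control replicate 1 and 7 without control replicate 3. CKO replicate 4, which was highest for 7 of the 9 immediate early genes, was also the highest for 10 of these 17 and for 17 of the 30 other immediate early genes. It was the highest for 5 of 12 ATF4 and unfolded protein stress genes, as was replicate 5, for 3 of 14 ERK feedback genes, where replicate 2 was the highest for 7, and for 2 of 10 heat shock genes.

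**Figure D5:**
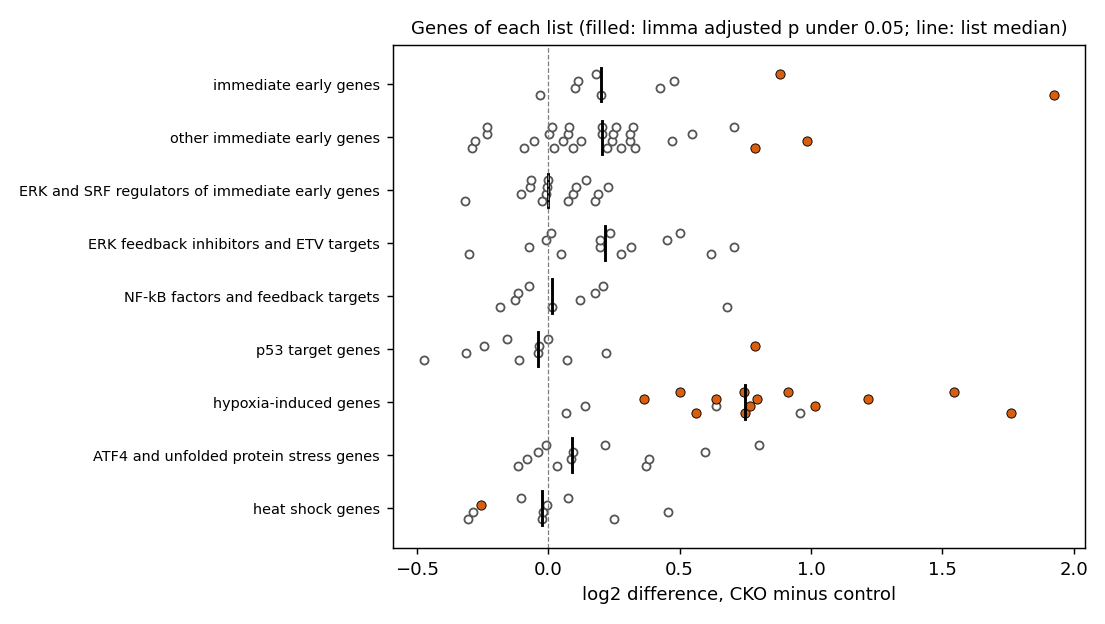
Log2 difference between CKO-labelled and control arrays for each gene of 9 lists, with a vertical line at each list's median; filled points have a limma adjusted p under 0.05. Ier3 is the rightmost point of the top row at 1.92, and the hypoxia-induced list, with 13 of 17 genes filled, has a median of 0.75 while that of the 9 immediate early genes is 0.20.

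The genes most like Ier3 over the 11 arrays, by Pearson correlation of log2 values, were Arhgap29 (r = 0.990), Bnip3 (0.984), Pdzrn3 (0.975), Stc1 (0.975) and Igfbp3 (0.974). In all 5 the CKO-labelled arrays lay above the others and replicate 4 was the highest; Igfbp3, for example, read 6.36 to 6.88 in controls and 8.70, 8.70, 8.27, 9.41 and 9.05 in CKO-labelled arrays. Within the set, the genes closest to Ier3 were Dusp1 (r = 0.852), Fos (0.848) and Jun (0.846), which ranked 224, 233 and 243 of 18192 genes. Junb followed at 0.683, Egr1 at 0.465, Atf3 at 0.460, Ier2 at 0.408 and Fosb at -0.275. For Fos the closest genes were Rrad (0.957), Dmtf1 (0.954), A530047J11Rik (0.944), Flt1 (0.939) and Bmp5 (0.938). The points share the 3 groups and the array scaling, so these correlations mostly restate the group differences and the high value on replicate 4, and they are given as a description.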

How the data were processed

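RNA of pooled embryonic day 9.5 hearts was measured on 11 arrays. Per the labels' protocols, 50 ng of TRIzol RNA went through an Ovation amplification and labelling kit. The authors deposited linear intensities, 1 per probe set and array; PLIER is named in the submitters' processing notes, and the sources used here give neither its version nor its background correction or scaling. There are no detection calls, and the number of arrays limits the precision. Groups came from the genotype labels. Here log2(value + 16) was taken of the deposited intensities; array medians spanned 0.465, so arrays were quantile normalised, which forces 1 distribution. The offset understates changes of dim genes. The 64 control probe sets were left out and 45037 were fitted with limma 3.58.1 in R 4.3.3: 1 coefficient per group, all 11 arrays, moderation with an intensity trend, two-sided tests, Benjamini-Hochberg over all probe sets, called at an adjusted p under 0.05. The fit was checked on simulated data. The alternatives tried were other scalings, offsets, filters, moderation, weights, a replicate block and each array left out. Symbols came from the platform annotation (34945 probe sets with 1 symbol, 932 with several, 9160 with none). The brightest probe set represents a gene, with names ending in _s_at or _x_at used only where there was no other. The members, named by symbol, and the 16 lists (160 of 167 entries matched) were chosen with earlier results of these data known; from each list the genes called, or else up to 3 with the smallest p, are named, and Ccn1 and Wt1 were chosen after their values were seen. Promoter letters are from RefSeq, GRCm38.p6.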

Additional observations from a re-analysis of the deposited data

Results flagged for a closer look

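One value stood apart within its group. Dusp1 in CKO replicate 4 had a log2 value of 9.32, and its gap to the nearest CKO-labelled array was 0.755 of the group's range, above Dixon's 95% critical value of 0.71. It was the only one of the 10 probe sets to do so in the CKO-labelled group, the only group large enough, and chance marks about 1 in 20 groups. The same array was the highest of its group for 7 of the 9 genes.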

How the results depend on the processing

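Ier3 was called higher in both comparisons of the CKO-labelled arrays under all 22 alternatives, with log2 differences of 1.53 to 2.15 against controls and 1.74 to 2.36 against double heterozygous arrays. The Fos call against controls held under 10 of 22 and was lost under 12, with differences of 0.66 to 1.06; the members called higher were then 1 instead of 2 (deposited values, median centring, no trend, 2 groups fitted, replicate block; 1 to 2 with an array left out). Dusp1, not called at the main setting, was called against controls under 2 of 22, among them without CKO replicates 2 and 3 (limma adjusted p = 0.0393). Against double heterozygous arrays 1 member was called, 2 without CKO replicates 2 and 3, and 1 to 2 with an array left out. Over all probe sets, 632 passed the test of CKO-labelled against control arrays, 92 on deposited values, 362 with median centring, 281 without a trend, 263 with 2 groups fitted, 265 with the replicate block, 2393 with array weights, 1362 without CKO replicates 2 and 3, 391 over genes averaged, and 168 to 897 with an array left out. For CKO-labelled against double heterozygous arrays the counts were 157 and, in the same order, 15, 65, 53, 61, 65, 613, 650, 72 and 15 to 415. For double heterozygous against control arrays they were 0, then 1 with 2 groups fitted, 8 with weights, 2 without CKO replicates 2 and 3, 1 over genes averaged and 0 with an array left out. The F-test counts were 433, then 81 deposited, 284 median centring, 667 in the brighter 22518 probe sets, 198 without a trend, 157 with the block, 1599 with weights, 885 without CKO replicates 2 and 3, 270 over genes averaged and 185 to 653 with an array left out. Fewer genes tested and fewer samples enter some of these; otherwise the cause was not tested.

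Changes of sign occurred only in differences that were not called. Against controls, the replicate block gave 0.018 for Fosb, -0.22 for Egr1 and -0.057 for Atf3, and with an array left out the ranges were -0.17 to 0.10, -0.12 to 0.31 and -0.011 to 0.22. Against double heterozygous arrays, the block gave -0.063 for Junb, -0.16 for Egr1 and -0.069 for Atf3, median centring gave -0.0010 for Ier2, and with an array left out the ranges were -0.40 to 0.045 for Fosb, -0.060 to 0.37 for Egr1 and -0.023 to 0.21 for Atf3. Between double heterozygous and control arrays, deposited values gave -0.0069 for Ier2 and -0.029 for Atf3, weights gave -0.013 for Atf3, and with an array left out the ranges were -0.076 to 0.37 for Fosb, -0.043 to 0.23 for Junb, -0.032 to 0.087 for Ier2 and -0.056 to 0.097 for Atf3. The replicate numbers did not pair the arrays (1 of 9 correlations of same-numbered deviations exceeded 0.1, from -0.06 to 0.15), and the blocked fit rests on replicates 1 to 3. In it Ier3 was 1.53 above controls (limma adjusted p = 0.000236). Dim probe sets, Fosb above all, limit what these arrays can show.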
